A study of Rattus norvegicus with 16 samples.

Results

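The miR-17-92 and miR-106b-25 clusters are short runs of microRNA hairpins that are each cut from a shared transcript. Their members were chosen by name, as 10 mature rat miRNAs: miR-17-5p, miR-18a-5p, miR-19a-3p, miR-19b-3p, miR-20a-5p and miR-92a-3p of miR-17-92, and miR-106b-5p, miR-106b-3p, miR-93-5p and miR-25-3p of miR-106b-25. All 10 were among the 317 rat miRNAs listed at every week, and all 10 passed the filter on low counts that left 306 miRNAs for testing. The small RNA libraries came from left ventricles of Sprague Dawley rats, all male, fed 0.4% Dyets chow and operated on at 10 weeks of age. The rats were examined 2, 4, 5 and 7 weeks after 5/6 nephrectomy (5/6Nx) by excision, which removes most of the kidney mass, and each week's rats were set against rats of the same strain and age at the same week after sham surgery. There were 8 groups with 2 pools each, named A and B, of 2 to 3 rats, and hence 16 libraries in all. Pooling hides the spread between single rats. Whether 1 group's pools were drawn from separate rats is not stated, and the p-values below therefore measure pool-to-pool spread alone. In whole tissue, fewer cells of a type and less of a miRNA per cell cannot be told apart.

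A miRNA pairs with messenger RNAs mainly through its seed, the bases near its 5′ end, and lowers their stability and translation, so members with a shared seed are taken to share many targets. miR-17-92 is known as a growth-promoting cluster that is raised in many tumours, and in mice it is needed for normal heart and lung development and can drive cardiomyocyte proliferation. The miR-17 seed family restrains cell cycle inhibitors such as Cdkn1a, in mice miR-92a limits vessel growth after ischaemia, and miR-25 lowers the calcium pump SERCA2a in the failing heart.

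The mature sequences are shown because the results below are ordered by seed. They are printed 5′ to 3′ from RefSeq (build GRCr8), with the seed, bases 2 to 8, in capitals. The first 4 share the seed of miR-17.
miR-17-5p: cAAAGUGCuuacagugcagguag
miR-20a-5p: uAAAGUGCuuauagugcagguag
miR-93-5p: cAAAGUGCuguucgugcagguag
miR-106b-5p: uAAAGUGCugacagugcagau
miR-18a-5p: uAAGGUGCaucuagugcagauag
miR-19a-3p: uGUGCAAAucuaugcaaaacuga
miR-19b-3p: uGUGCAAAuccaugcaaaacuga
miR-92a-3p: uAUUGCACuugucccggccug
miR-25-3p: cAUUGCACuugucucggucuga
miR-106b-3p: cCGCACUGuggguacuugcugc

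The seed AAAGUGC was thus held by 4 members, of which 2 lie in each cluster. GUGCAAA was held by both miR-19 members, AUUGCAC by miR-92a-3p and miR-25-3p across the clusters, AAGGUGC by miR-18a-5p alone and CGCACUG by miR-106b-3p alone. Counted from 1 at the 5′ end, miR-20a-5p differed from miR-17-5p by C1U and C12U, and miR-19b-3p differed from miR-19a-3p by U11C alone. Over the 21 bases compared, miR-25-3p differed from miR-92a-3p by U1C, C14U and C18U. How reads that match more than 1 such sequence or locus were shared is not given in the sources used here, so the split between near-identical members, miR-19a-3p and miR-19b-3p above all, is uncertain.

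In GRCr8 the miR-17-92 members lie on the plus strand of chromosome 15, from miR-17-5p at chr15:98587861-98587883 through miR-18a-5p at chr15:98588000-98588022, miR-19a-3p at chr15:98588179-98588201, miR-20a-5p at chr15:98588318-98588340 and miR-19b-3p at chr15:98588486-98588508 to miR-92a-3p at chr15:98588602-98588622, a span of 762 bases with 6 hairpins. The miR-106b-25 members lie on the minus strand of chromosome 12 within the protein-coding gene Mcm7, which encodes a subunit of the DNA replication helicase. They run from miR-106b-5p at chr12:22157103-22157123 and miR-106b-3p at chr12:22157062-22157083 through miR-93-5p at chr12:22156894-22156916 to miR-25-3p at chr12:22156652-22156673, a span of 472 bases with 3 hairpins. The mature sequences of miR-17-5p, miR-19b-3p and miR-92a-3p also stand on chromosome X, in the hairpins Mir106a at chrX:137343615-137343637, Mir19b2 at chrX:137343070-137343092 and Mir92a2 at chrX:137342945-137342965, all on the minus strand. Counts of those 3 members therefore cannot be assigned to a single locus.

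Counts on rat miRNAs ran from 672077 in week 7 sham pool B to 3509916 in week 4 5/6Nx pool A. The 6 cardiomyocyte markers examined, miR-1-3p, miR-133a-3p, miR-133b-3p, miR-208a-3p, miR-208b-3p and miR-499-5p, were all measured and together stood at 38062 to 70643 CPM, whereas of 6 markers of other tissues the liver, brain and skeletal muscle markers miR-122-5p, miR-124-3p and miR-206-3p were not listed at every week. The other 3 were listed, with 105 to 810 counts per library for miR-9a-5p of brain, 1579 to 6519 for miR-192-5p and 25 to 259 for miR-194-5p, both abundant in kidney, liver and gut. CPM are counts scaled to an equal library size after TMM scaling. The pools of a group correlated across miRNAs at r = 0.991 to 0.996 in 6 of the groups, at 0.983 for week 7 sham and at 0.979 for week 5 sham. Where the edgeR change of a single member at week 5 is given in the text below, it is therefore also given without each week 5 sham pool.

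The members together took 0.510% to 0.985% of the counts on rat miRNAs. miR-92a-3p was the most abundant, with a mean of 4697 CPM over the 16 libraries, and ranked 26 among the 306 miRNAs tested. miR-25-3p followed with 1669 CPM (rank 49), miR-93-5p with 348 CPM (rank 89) and miR-19b-3p with 113 CPM (rank 127). These 4 kept their order in all 16 libraries.

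The other members were far lower. miR-106b-3p and miR-106b-5p averaged 43.5 CPM each, miR-17-5p 30.8 CPM, miR-20a-5p 29.8 CPM, miR-19a-3p 11.4 CPM and miR-18a-5p 5.21 CPM. The arms of miR-106b could not be ranked, since the 3p arm was above the 5p arm in 9 of 16 libraries, and neither could miR-17-5p and miR-20a-5p, of which the first was higher in 10 of 16. miR-106b-5p was above miR-17-5p in 15 libraries and miR-19a-3p above miR-18a-5p in 14. The order of mean levels was the same under both other library scalings tried. Mature miRNAs are of nearly 1 length (21 to 23 bases here), so CPM were compared between members without scaling by length. Differences in ligation between sequences were not measured.

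**Figure D1:**
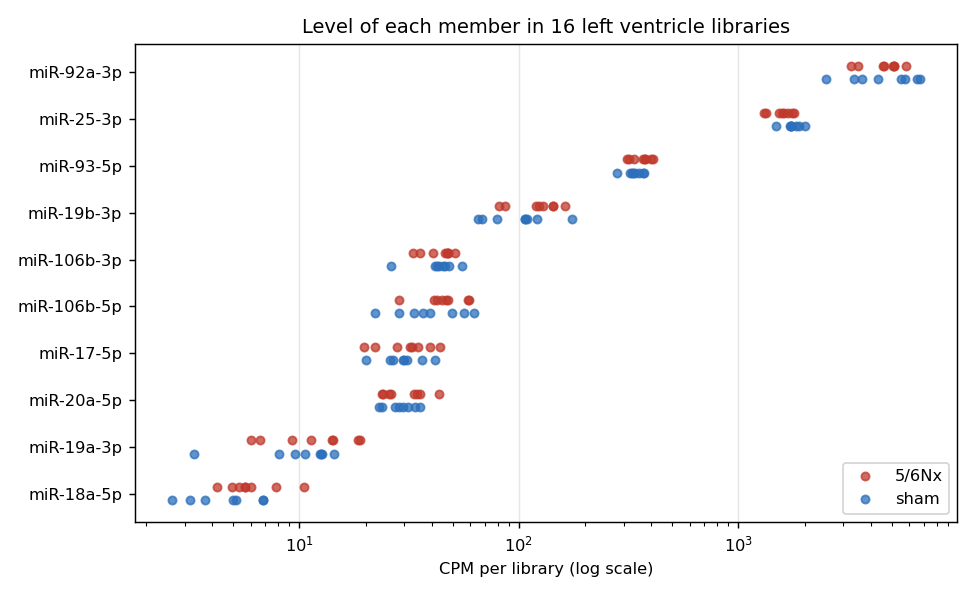
Level of each member in CPM (log axis) in each library, with 5/6Nx libraries in red above sham libraries in blue. miR-92a-3p and miR-25-3p stand apart from the rest, and the 5/6Nx and sham points of every member overlap over the weeks as a whole; the sham library with 0 counts of miR-18a-5p cannot be drawn on this axis.

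Each cluster was dominated by the member with the AUUGCAC seed. miR-92a-3p made up 92.7% to 98.1% (median 95.9%) of the counts of the 6 miR-17-92 members. miR-25-3p made up 75.6% to 84.9% (median 78.8%) of the counts of the 4 miR-106b-25 members. miR-92a-3p and miR-25-3p together held 86.0% to 94.3% of all member counts in a library.

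The depth behind the members differed accordingly. miR-92a-3p had 3448 to 20356 counts per library and miR-25-3p 1134 to 6122 counts, whereas miR-17-5p had 16 to 119, miR-20a-5p 17 to 114, miR-19a-3p 2 to 52 and miR-18a-5p 0 to 27. Counting error alone was 1.70% of the value at the lowest library of miR-92a-3p and 24.3% at that of miR-20a-5p. The reads carry no molecular identifiers, so these figures cover counting error only.

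Tests of 5/6Nx against sham used edgeR's quasi-likelihood test with Benjamini-Hochberg adjustment over all 306 miRNAs, and a change is the log2 ratio of 5/6Nx to sham ± SE, called at an adjusted p under 0.05. At week 2, 0 of 10 members passed, against 0.654% of all miRNAs tested; 1 member and 20.9% of all miRNAs had an unadjusted p under 0.05. At week 4, 0 members passed (0.654% of all), and 0 members and 7.19% of all had an unadjusted p under 0.05. At week 5, 0 members passed (0.0% of all), with 1 member and 8.82% of all at an unadjusted p under 0.05. At week 7, 0 members passed (4.25% of all), with 1 member and 19.9% of all below that unadjusted value. For the mean of the 4 weekly changes, 0 members passed (5.56% of all), with 1 member and 22.2% of all below it. DESeq2 and limma-voom also called 0 members in each of these 5 comparisons. A missed threshold does not show that levels were alike, and the changes with their intervals follow by seed.

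At week 2 most members lay above sham. Their summed counts, mostly of miR-92a-3p and miR-25-3p, did not. They were 0.804% and 0.861% of counts on rat miRNAs in 5/6Nx pools A and B, against 0.862% and 0.985% in sham pools. The change was above 0 for 8 of 10 members, against 51.3% of all miRNAs, and the median change was 0.43 for the members and 0.03 for all miRNAs. The 5/6Nx pools did not overlap the sham pools for 7 members, against 60.5% of all miRNAs. They lay above for miR-17-5p, miR-18a-5p, miR-19a-3p, miR-19b-3p, miR-20a-5p and miR-93-5p, and below for miR-92a-3p. By seed, the 4 miR-17 seed members had changes of 0.20 to 0.60 (median 0.49), both miR-19 members of 0.40 and 0.56, and miR-92a-3p and miR-25-3p of -0.31 and -0.03.

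Week 2 libraries also differed between surgeries in other ways. The 3 measured of 4 erythroid and blood markers summed to 505 to 803 CPM in 5/6Nx pools, against 248 to 314 CPM in sham pools, and the fourth, miR-486, was not listed at every week. The 5 leukocyte markers summed to 2033 to 2568 CPM in 5/6Nx pools, against 2920 to 3465 CPM in sham pools, and the 6 cardiomyocyte markers to 38062 to 45729 CPM in 5/6Nx pools, against 51541 to 65078 CPM in sham pools. The fibroblast markers miR-199a-3p, miR-199a-5p and miR-214-3p summed to 2302 to 2412 CPM in 5/6Nx pools, against 2579 to 2595 CPM in sham pools. Sums were higher after 5/6Nx for the 2 smooth muscle markers miR-143-3p and miR-145-5p, at 197090 to 208530 CPM in 5/6Nx pools, against 148312 to 189476 CPM in sham pools. The 2 endothelial markers miR-126a-3p and miR-126a-5p summed to 30227 to 30687 CPM in 5/6Nx pools, against 25085 to 27886 CPM in sham pools, and the 3 measured markers of other tissues to 2071 to 2289 CPM in 5/6Nx pools, against 1577 to 1867 CPM in sham pools. No list overlapped between surgeries at week 2. Here and below, each sum leans on the most abundant marker of its list and need not show the direction of the others. Counts per library were 549 to 9288 for miR-150-5p, against 141 to 1122 for miR-142-5p, the next leukocyte marker. They were 33346 to 203646 for miR-133a-3p, against 2119 to 8115 for miR-1-3p, and 177585 to 703430 for miR-143-3p, against 225 to 3338 for miR-145-5p. Mapped reads were 70.1% to 79.0% in 5/6Nx libraries, against 82.7% to 88.5% in sham libraries. The part of these differences in the week 2 levels was not tested.

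At the later weeks the members had no common direction. Changes were above 0 for 6 of 10 members at week 4 (38.9% of all miRNAs), 5 of 10 at week 5 (55.6%) and 5 of 10 at week 7 (45.8%), with member medians of 0.06, 0.03 and -0.02. The medians over all miRNAs at these weeks were -0.08, 0.05 and -0.04. At week 5 the number above 0 was 4 without sham pool A (member median -0.13, all miRNAs -0.01) and 6 without sham pool B (member median 0.04, all miRNAs -0.11). At week 4 the pools did not overlap for 4 members, against 44.4% of all miRNAs, with 5/6Nx above for miR-19b-3p and miR-93-5p and below for miR-106b-3p and miR-25-3p. Marker sums were lower after 5/6Nx at week 4, without overlap, for cardiomyocytes (50272 to 60498 CPM in 5/6Nx pools, against 68133 to 68550 CPM in sham pools), leukocytes (1590 to 1642 against 1808 to 2006 CPM), fibroblasts (2454 to 2551 against 2586 to 2727 CPM) and other tissues (2059 to 2179 against 2246 to 2394 CPM), and their part in these levels was not tested. At week 5 the pools did not overlap for 5 members, against 35.0% of all miRNAs. The 5/6Nx pools lay above for miR-92a-3p, miR-106b-5p and miR-106b-3p and below for miR-17-5p and miR-20a-5p. The week 5 changes of miR-106b-5p and miR-106b-3p were 0.19 and 0.18. They were 0.12 and 0.06 without sham pool A, and 0.02 and 0.06 without sham pool B. At week 7 the pools did not overlap for 5 members, against 54.9% of all miRNAs. Those of 5/6Nx lay above for miR-18a-5p and miR-19b-3p and below for miR-92a-3p, miR-93-5p and miR-25-3p.

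**Figure D2:**
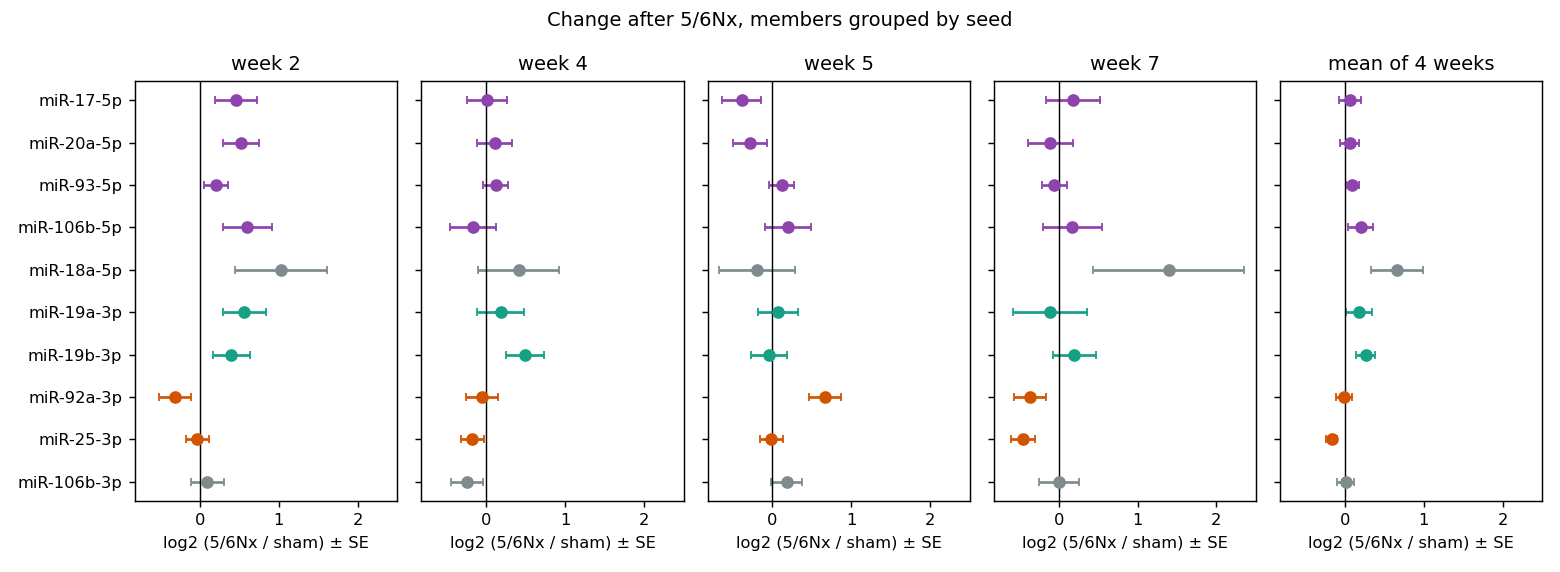
Change of each member (log2 ratio of 5/6Nx to sham ± SE, edgeR, 2 pools per group) at each week and for the mean of 4 weeks, with members coloured and ordered by seed. At week 2 all miR-17 seed and miR-19 points lie above 0, miR-92a-3p lies below it and miR-25-3p (-0.03 ± 0.15) is within its SE of 0. Both AUUGCAC points also lie below 0 at weeks 4 and 7, although miR-92a-3p at week 4 (-0.05 ± 0.20) is within its SE of 0. At week 5 miR-92a-3p has the highest change (0.67), the size of which depended on the sham pool kept. No change shown passed the threshold.

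miR-92a-3p, the last hairpin of miR-17-92, had 4565 and 5098 CPM in week 2 5/6Nx pools A and B, against 5494 and 6494 CPM in sham. At week 4 it had 3497 and 3250.1 CPM in 5/6Nx pools, against 3639 and 3349.6 CPM in sham pools. At week 5 it had 5773 and 5054 CPM in 5/6Nx pools, against 2497 and 4314 CPM in sham pools. At week 7 it had 4578 and 5098 CPM in 5/6Nx pools, against 6715 and 5734 CPM in sham pools. The 5/6Nx pools thus lay below sham at weeks 2 and 7 and above it at week 5, and overlapped it at week 4.

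The change of miR-92a-3p at week 5 was 0.67 ± 0.20 (95% interval 0.23 to 1.10), with an edgeR adjusted p of 0.171. Its size depended on which week 5 sham pool was in. It was 0.20 with sham pool A left out (adjusted p = 0.437) and 1.0 with sham pool B left out (edgeR adjusted p = 0.00033), with the lone pool assumed to vary like the other groups. It was 0.40 and 0.76 without 5/6Nx pool A and B of that week, and neither passed. The summed endothelial markers, miR-126a-3p and miR-126a-5p, were 21181 to 23556 CPM in week 5 5/6Nx pools, against 16732 to 56618 CPM in sham pools, which overlapped. Sums that did not overlap at week 5 were those of the fibroblast markers, at 2737 to 2911 CPM in 5/6Nx pools, against 2218 to 2293 CPM in sham pools, and of the markers of other tissues, at 2039 to 2081 CPM in 5/6Nx pools, against 2403 to 2458 CPM in sham pools. Their part in this difference was not tested. At week 2 the change was -0.31 ± 0.20 (edgeR adjusted p = 0.384), or -0.47 and -0.18 without sham pool A and B of that week, and at week 7 -0.36 ± 0.20 (adjusted p = 0.374). The week 2 change came to -0.34 and -0.39 without week 5 sham pool A and B, with edgeR adjusted p-values of 0.0451 and 0.0459. The spread is pooled over groups, and without either of those pools the number of all miRNAs called at week 2 was 53 and 56, against 2 with all libraries.

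miR-25-3p varied less than miR-92a-3p, with 1308 to 1999 CPM over the 16 libraries. At week 2 it had 1582 and 1792 CPM in 5/6Nx pools, against 1743 and 1708 CPM in sham pools. At week 4 it had 1614 and 1536 CPM in 5/6Nx pools, against 1833 and 1729 CPM in sham pools. At week 5 it had 1759 and 1679 CPM in 5/6Nx pools, against 1475 and 1999 CPM in sham pools, a change of -0.01, which was -0.35 and 0.10 without sham pool A and B. The lowest values of the series were at week 7, with 1308 and 1335 CPM in 5/6Nx pools, against 1729.5 and 1886 CPM in sham pools, which did not overlap.

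The week 7 change of miR-25-3p was -0.45 ± 0.15 (95% interval -0.77 to -0.13), with an edgeR adjusted p of 0.0765, the smallest of any member in the surgery comparisons. It had an edgeR adjusted p of 0.0433 with week 7 fitted alone (-0.41), when 34 of 251 miRNAs passed, against 13 of 306 with all libraries. The week 7 change was -0.42 with week 5 sham pool A left out and -0.46 with pool B left out. Over all alternatives the week 7 change ran from -0.52 to -0.36, and whether it passed depended on the libraries kept. For the mean of 4 weeks the change was -0.17 ± 0.07 (95% interval -0.33 to -0.01, edgeR adjusted p = 0.183). This mean was -0.23 with week 5 sham pool A left out and -0.13 with pool B left out. At week 7 mapped reads were 87.6% to 89.3% in 5/6Nx libraries, against 91.3% to 92.7% in sham libraries, and the summed fibroblast markers miR-199a-3p, miR-199a-5p and miR-214-3p were 3123 to 3182 CPM in 5/6Nx pools, against 2310 to 2385 CPM in sham pools. Lower sums went with the lower miR-25-3p for the cardiomyocyte markers, at 55295 to 57191 CPM in 5/6Nx pools, against 64173 to 69296 CPM in sham pools, and the leukocyte markers, at 1050 to 1181 CPM in 5/6Nx pools, against 1219 to 1323 CPM in sham pools. The markers of other tissues were also lower, at 2405 to 2455 CPM in 5/6Nx pools, against 2879 to 2948 CPM in sham pools. The part of these lists in the miR-25-3p level was not tested.

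**Figure D3:**
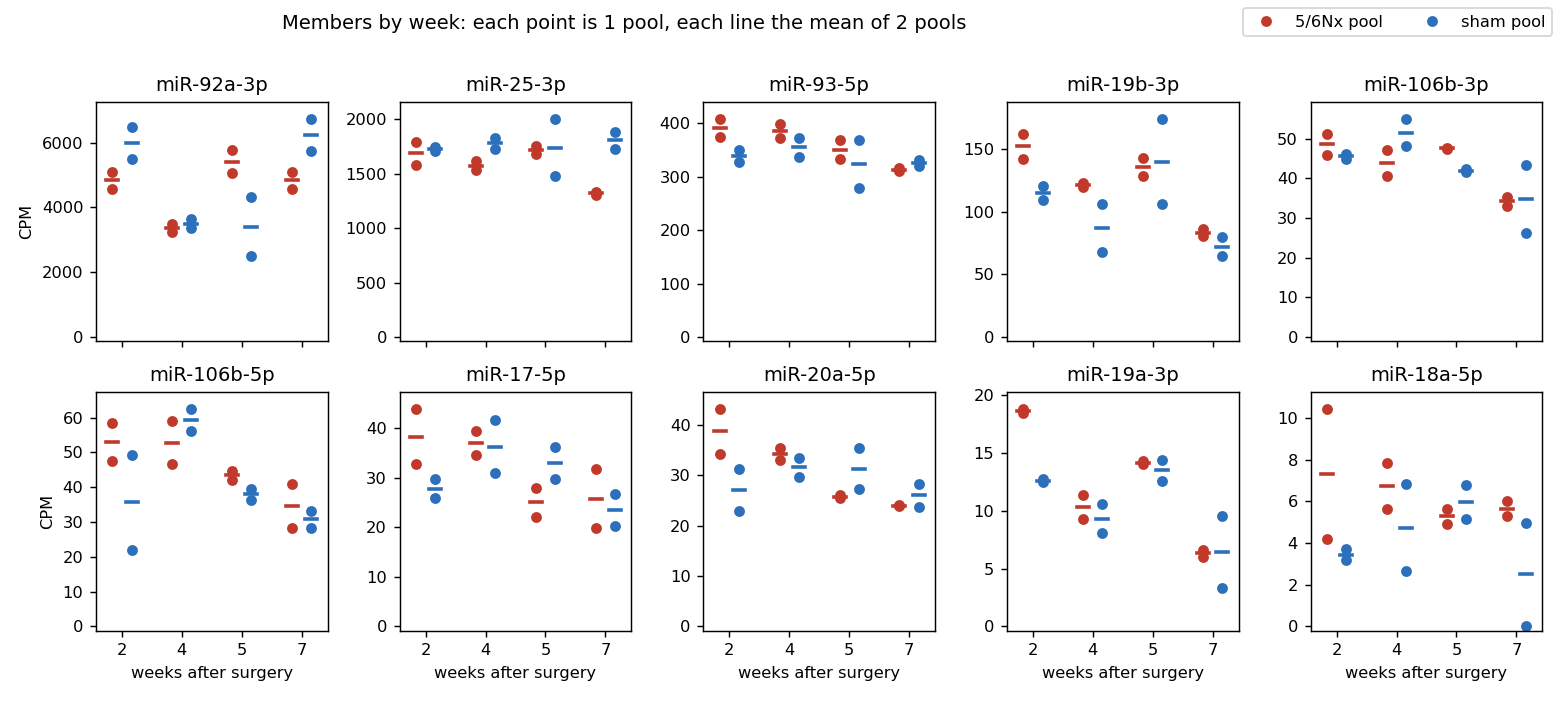
CPM of each member by week, with 5/6Nx pools in red to the left of sham pools in blue and a line at the mean of each pair of pools. The 5/6Nx points of miR-25-3p at week 7 (1308 and 1335 CPM) lie below all other points of that member, and the sham points of miR-92a-3p at week 5 lie wide apart.

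Among the miR-17 seed family, miR-20a-5p was the member with an unadjusted p under 0.05 at week 2. It had 43.2 and 34.3 CPM in 5/6Nx pools, against 31.3 and 23.0 CPM in sham pools (0.52 ± 0.23, 95% interval 0.03 to 1.01, edgeR adjusted p = 0.202), and the change was 0.30 without sham pool B of that week. At week 5 its direction was the other way, with 26.0 and 25.5 CPM in 5/6Nx pools, against 35.4 and 27.2 CPM in sham pools (-0.28 ± 0.22, adjusted p = 0.659), a change of -0.21 and -0.58 without week 5 sham pool A and B. The pools did not overlap at either week, and neither change passed.

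miR-17-5p took the same course. It had 43.8 and 32.7 CPM in week 2 5/6Nx pools, against 29.7 and 25.8 CPM in sham pools (0.46 ± 0.27, edgeR adjusted p = 0.345), and the change was 0.19 without 5/6Nx pool A. At week 5 it had 22.1 and 28.0 CPM in 5/6Nx pools, against 36.1 and 29.8 CPM in sham pools (-0.39 ± 0.25, adjusted p = 0.585), a change of -0.37 and -0.63 without week 5 sham pool A and B. At weeks 4 and 7 its 5/6Nx and sham pools overlapped. The ratio of miR-17-5p to miR-20a-5p counts stayed between 0.821 and 1.33 (median 1.03) in all libraries.

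The miR-17 seed members of the other cluster differed in depth. miR-93-5p, the most abundant of the family, had 407 and 373 CPM in week 2 5/6Nx pools, against 350 and 328 CPM in sham pools (0.20 ± 0.16, 95% interval -0.13 to 0.54, edgeR adjusted p = 0.466). Its highest library was 1.46 times its lowest, the smallest such ratio of the 10 members. miR-106b-5p had 58.5 and 47.5 CPM in week 2 5/6Nx pools, against 49.3 and 22.0 CPM in sham pools, which overlapped (0.60 ± 0.31, adjusted p = 0.261). Its week 2 change was 0.10 without sham pool B of that week and 1.22 without sham pool A.

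Both miR-19 members were above sham at week 2. miR-19a-3p had 18.8 and 18.5 CPM in week 2 5/6Nx pools, against 12.7 and 12.4 CPM in sham pools (0.56 ± 0.27, edgeR adjusted p = 0.252). miR-19b-3p had 162 and 142 CPM in week 2 5/6Nx pools, against 109 and 121 CPM in sham pools (0.40 ± 0.24, adjusted p = 0.356), and the change was 0.26 without 5/6Nx pool A. Neither change passed, although pools did not overlap.

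At week 4 miR-19b-3p had 119.6 and 123 CPM in 5/6Nx pools, against 106.2 and 68.1 CPM in sham pools (0.49 ± 0.24, 95% interval -0.02 to 1.01, edgeR adjusted p = 0.601). The change was 0.84 without sham pool A and 0.21 without sham pool B of that week. With week 4 fitted alone, when 16 of 296 miRNAs passed against 2 of 306 with all libraries, it was 0.60 (edgeR adjusted p = 0.0330). At week 5 it had 143 and 129 CPM in 5/6Nx pools, against 107 and 174 CPM in sham pools, a change of -0.04, which was -0.49 and 0.23 without sham pool A and B. At week 7 it had 86.0 and 80.8 CPM in 5/6Nx pools, against 79.6 and 64.9 CPM in sham pools. For the mean of 4 weeks the change was 0.26 ± 0.12 (edgeR adjusted p = 0.227), 0.34 with week 5 sham pool B left out and 0.17 with pool A left out. Whether this mean change passed depended on the week 5 sham pool kept. miR-19b-3p counts were 7.71 to 19.5 times those of miR-19a-3p, the widest ratio resting on 2 counts of miR-19a-3p in week 7 sham pool B.

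miR-18a-5p, whose seed differs from that of miR-17 by A4G, was near the detection limit. At week 2 it had 10.4 and 4.22 CPM in 5/6Nx pools, against 3.71 and 3.19 CPM in sham pools (1.03 ± 0.58, edgeR adjusted p = 0.328), from 15 and 8 counts in 5/6Nx pools against 7 and 10 counts in sham pools. At week 7 there were 8 and 7 counts in 5/6Nx pools, against 0 and 3 counts in sham pools, a ratio of 2.70 after scaling with a 95% counting interval of 0.763 to 14.5. A count of 0 in week 7 sham pool A allows a level of up to 3.56 CPM. At week 4 the change was 0.41 ± 0.51 (edgeR adjusted p = 0.893) and for the mean of 4 weeks 0.66 ± 0.33 (adjusted p = 0.258). Single libraries moved these changes widely: at week 2 to 0.26 and 1.58 without 5/6Nx pool A and B, at week 4 to 0.0064 and 1.37 without sham pool A and B, and for the mean to 0.36 without week 7 sham pool A. Without week 7 sham pool B, that group holds only the library with a count of 0, and no value is given.

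miR-106b-5p and miR-106b-3p are the arms of a single hairpin, so their ratio needs no library scaling. The 5p to 3p ratio had a median of 0.964 and ran from 0.489 in week 2 sham pool B to 1.45 in week 4 5/6Nx pool A. At week 2 it was 1.27 and 0.928 in 5/6Nx pools, against 1.07 and 0.489 in sham pools, and at week 7 1.24 and 0.805 in 5/6Nx pools, against 1.27 and 0.654 in sham pools. It overlapped between surgeries at weeks 2, 5 and 7. At week 4 it was 1.45 and 0.992 in 5/6Nx pools, on both sides of 1.16 and 1.14 in sham pools.

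The ratio of miR-92a-3p to miR-25-3p, the abundant members of the clusters with a shared seed, likewise needs no scaling. At week 2 it was 2.89 and 2.85 in 5/6Nx pools, against 3.15 and 3.80 in sham pools. At week 4 it was 2.17 and 2.12 in 5/6Nx pools, against 1.99 and 1.94 in sham pools. At week 5 it was 3.28 and 3.01 in 5/6Nx pools, against 1.69 and 2.16 in sham pools. The ratio was thus lower after 5/6Nx at week 2, higher at weeks 4 and 5, without overlap, and overlapped at week 7, with 3.50 and 3.82 in 5/6Nx pools, against 3.88 and 3.04 in sham pools.

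**Figure D4:**
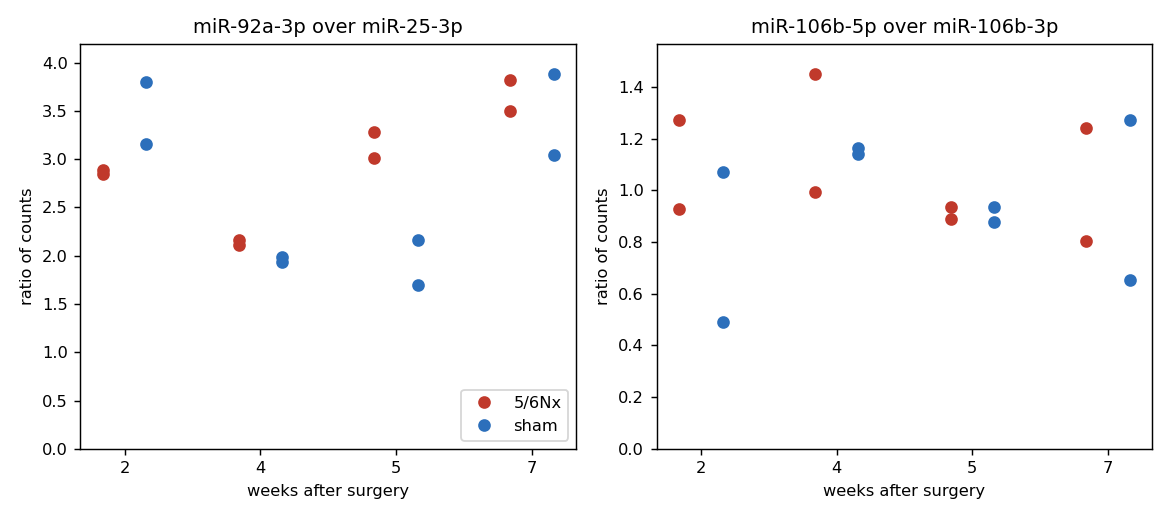
Ratio of counts of miR-92a-3p over miR-25-3p (left) and of miR-106b-5p over miR-106b-3p (right) in each library by week, with 5/6Nx pools in red to the left of sham pools in blue. The left ratio is near 2 in every week 4 library and spans 1.69 to 3.28 at week 5; the right ratio is scattered around 1.

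Whether the surgery difference itself varied between weeks was tested as an interaction of surgery and week. By edgeR 0 of 10 members passed, against 1.63% of all miRNAs, and miR-92a-3p had the smallest p (unadjusted 0.0104, adjusted 0.146). DESeq2 and limma-voom called 0 members as well, and miR-92a-3p was the only member with an unadjusted p under 0.05 in edgeR. Without week 5 sham pool B its edgeR adjusted p was 0.00045, and without pool A that of miR-19b-3p was 0.0412, when 75 and 57 of all miRNAs were called, against 5 with all libraries. The opposite directions of miR-92a-3p at weeks 2 and 5 are therefore not shown to differ with all libraries in.

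Levels of miR-92a-3p, and less stably of miR-19b-3p, differed between weeks in rats that had no nephrectomy. Among the 4 sham groups, 2 of 10 members passed the edgeR test for week, a smaller share than the 31.4% of all miRNAs. They were miR-92a-3p (adjusted p = 0.0045) and miR-19b-3p (adjusted p = 0.0366). Sham means of miR-92a-3p were 5994 ± 707, 3494 ± 205, 3405 ± 1285 and 6224 ± 694 CPM at weeks 2, 4, 5 and 7 (SD, n = 2 pools each), with the middle weeks low. Those of miR-19b-3p were 115 ± 8.28, 87.2 ± 26.9, 140 ± 47.5 and 72.2 ± 10.4 CPM, and its call was lost without week 2 sham pool B, week 4 sham pool B, either week 7 sham pool, week 4 5/6Nx pool A or week 5 5/6Nx pool B (edgeR adjusted p = 0.0539 to 0.104). miR-92a-3p kept its call without each of the 16 libraries (adjusted p up to 0.0309). miR-106b-5p missed the threshold (adjusted p = 0.0986) and passed without week 2 sham pool A (edgeR adjusted p = 0.0171). Week and any sequencing run that goes with it cannot be told apart.

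The same test among the 5/6Nx groups, added after the sham result was known, called 1 member, against 38.6% of all miRNAs. It was miR-19a-3p (edgeR adjusted p = 0.0112), with means of 18.6 ± 0.233, 10.3 ± 1.46, 14.2 ± 0.145 and 6.32 ± 0.421 CPM at weeks 2, 4, 5 and 7 (SD, n = 2 pools each). The week 7 level was the lowest and came from only 10 and 7 reads in its pools, against 23 to 52 at the earlier weeks. An SD of 2 pools need not show the counting error at such depth. The call was lost without either week 7 5/6Nx pool (edgeR adjusted p = 0.0550 and 0.0658). miR-19b-3p, miR-92a-3p and miR-20a-5p had adjusted p-values of 0.0532, 0.0656 and 0.0714. miR-92a-3p had means of 4831 ± 377, 3373 ± 174, 5413 ± 509 and 4838 ± 367 CPM in the 5/6Nx groups, lowest at week 4.

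Co-variation of the members was described by Pearson's r of log2 CPM over the 16 libraries after each week's mean was subtracted. These libraries share depth and scaling, and r is given with no test. The 8 pairs with a shared seed had r of 0.42 to 0.73 (median 0.56), whereas the 37 pairs with different seeds had r of -0.74 to 0.55 (median 0.01). Pairs were also split by cluster: the 15 pairs within miR-17-92 had a median of 0.04 and the 6 within miR-106b-25 a median of 0.09, against 0.01 for 43660 pairs of other rat miRNAs. With each group's mean subtracted instead, pairs with a shared seed had r of 0.29 to 0.80 (median 0.59) and the other pairs r of -0.97 to 0.75 (median -0.27). The median within miR-17-92 was then -0.43. The ranges of pairs with a shared seed and with different seeds overlapped whether week or group means were subtracted. Spearman's rho with week means subtracted was lower for some pairs with a shared seed, at 0.14 for miR-20a-5p with miR-106b-5p and 0.24 for miR-106b-5p with miR-93-5p.

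With week means subtracted, miR-17-5p and miR-20a-5p had the highest r, at 0.73, and miR-17-5p and miR-92a-3p the lowest, at -0.74, all members of miR-17-92, although counts of miR-17-5p and miR-92a-3p can also come from chromosome X. With group means subtracted, the extremes were pairs between the clusters, with miR-92a-3p and miR-25-3p highest, at 0.80, and miR-19a-3p and miR-106b-3p lowest, at -0.97. With 2 pools per group such an r rests on 1 difference per group, so a single group can weigh heavily. miR-92a-3p (2497 and 4314 CPM) and miR-25-3p (1475 and 1999 CPM) had their widest pool spread at week 5 sham. miR-19a-3p (9.50 and 3.33 CPM) and miR-106b-3p (26.1 and 43.2 CPM) had theirs at week 7 sham. With week means subtracted, miR-20a-5p and miR-92a-3p were at -0.68, the arms of miR-106b at 0.01, and miR-92a-3p and miR-25-3p, from different chromosomes, at 0.57. Members with a shared seed are also alike beyond it, with 1 to 5 differing bases in a pair, and the part of shared reads in their co-variation was not tested.

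**Figure D5:**
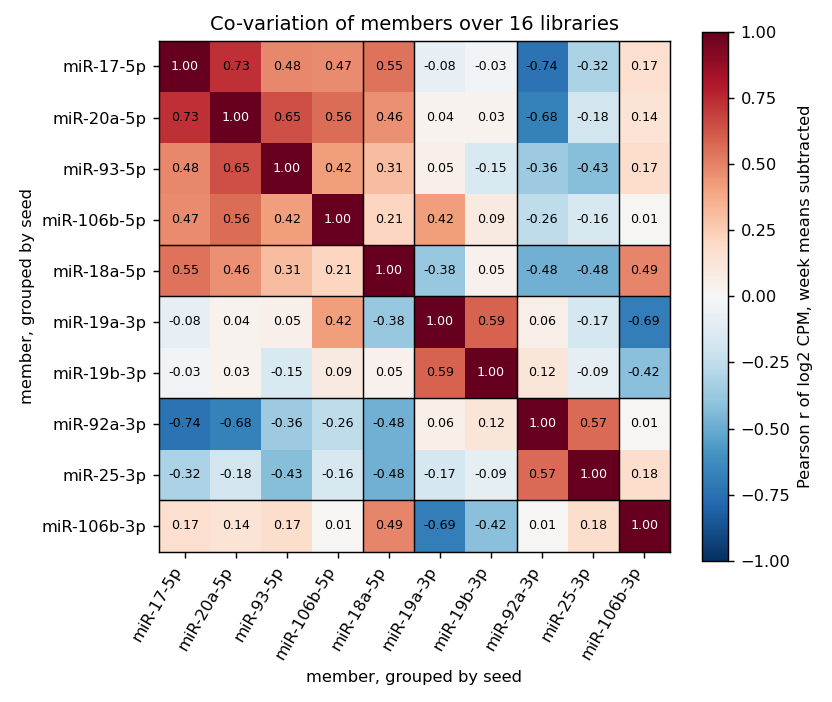
Pearson's r of log2 CPM between each pair of members over 16 libraries, week means subtracted, with black lines between seed groups (blue negative, red positive). The blocks on the diagonal for the miR-17 seed, miR-19 and AUUGCAC groups are red (0.42 to 0.73), and miR-92a-3p is blue against miR-17-5p and miR-20a-5p.

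The 5 other rat miRNAs whose levels most resembled the members' average, by r over the 16 libraries with week means subtracted, were miR-345-5p (0.86), miR-145-5p (0.83), miR-210-3p (0.81), miR-3574 (0.81) and miR-22-5p (0.75). miR-145-5p is a smooth muscle miRNA and miR-210-3p is induced by hypoxia. At week 2 their changes were 0.86 for miR-345-5p, 0.78 for miR-145-5p, 0.57 for miR-210-3p, 0.64 for miR-3574 and 0.84 for miR-22-5p. At weeks 4, 5 and 7 their changes lay between -0.10 (miR-22-5p, week 4) and 0.45 (miR-345-5p, week 7). The r used to pick them includes the week 2 surgery difference, so their week 2 changes are no separate result. The members' average weights each member alike, whatever its level.

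Relatives of the members were sparse. Of 23 names, which cover the other arms, the miR-106a-363 cluster on chromosome X and the seed relatives miR-92b and miR-32, 6 were listed at every week and 5 could be tested. 0 of these 5 passed in any surgery comparison by edgeR. miR-363-3p, the member of the chromosome X cluster that could be tested, had 9 to 61 counts per library and a mean of 15.2 CPM, and its changes were -0.55, -0.33, -0.19 and -0.24 at weeks 2, 4, 5 and 7. miR-92b-3p and miR-32-5p, with means of 7.20 and 7.24 CPM, had changes of both signs over the weeks. In the test of week among 5/6Nx groups both passed, that is 2 of 5 relatives against 38.6% of all miRNAs, with edgeR adjusted p-values of 0.0122 for miR-92b-3p and 0.00621 for miR-32-5p. miR-25-5p, the other arm of miR-25, had 1 to 8 counts and did not pass the filter.

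In the authors' deposited table of 5/6Nx against sham within each week, the adjusted p was 1 for every member at every week, 40 values in all. A single raw p in the authors' deposited table was under 0.05, that of miR-19b-3p at week 4 (p = 0.0487, log2 change 0.61). The authors' deposited table gave miR-92a-3p a log2 change of 0.64 at week 5 and miR-25-3p one of -0.41 at week 7.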

How the data were processed

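Left ventricles were frozen in liquid nitrogen and extracted with Trizol, and TruSeq small RNA libraries of pooled rats were read on an Illumina HiSeq instrument, per the labels' protocols. cutadapt, Bowtie and DESeq are the tools in the submitters' processing notes. Their versions, the genome build and miRNA annotation, and what was done with reads that match several places, stay unstated: each is not given in the sources used here. The deposited weekly tables hold raw counts per entry, per the file headers and their whole numbers. They also hold the authors' p-values (raw and adjusted) and log2 fold changes, per the file headers. A further deposited table gives reads and the percent mapped per pool number. The count tables name pools by letter, which nothing ties to those numbers, so percent mapped is given by group.

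Counts of the 317 rat miRNAs listed at all 4 weeks entered the analysis. Loci and entries named for other species, which can repeat the same reads, were left out, and the other-species entries came back as an alternative. A single edgeR 4.0.16 fit (R 4.3.3) held all 16 libraries with a mean for each of 8 groups, which leaves 8 residual degrees of freedom. Libraries were scaled by TMM, and edgeR's filter by group (minimum count 10) left 306 miRNAs (common dispersion 0.0271). Tests were two-sided quasi-likelihood F tests with Benjamini-Hochberg adjustment over the 306, with 3 degrees of freedom for week and for the interaction. Intervals are 95% intervals. The scripts were tested on simulated data. Alternatives used limma-voom (limma 3.58.1), DESeq2 1.42.0, other scalings and filters, each week fitted alone, a replicate block and each library left out in turn.

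The members and lists were chosen with earlier results of these data known, and the test of week among 5/6Nx groups was added after the sham result was seen. All 10 members are named. Of their surgery changes, those of at least 0.3 in log2 or with an unadjusted p under 0.05 are followed through every alternative, a rule set after the values were seen. Also named are the 5 other miRNAs most like the members' mean of z-scored log2 CPM. Mature sequences and positions come from RefSeq (GRCr8), in which all 10 members were matched. They describe that reference alone, since the files' own build is unknown.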

Additional observations from a re-analysis of the deposited data

How the results depend on the processing

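The number of members called in the weekly surgery comparisons, their mean and the interaction was 0 under DESeq2 size factors, library sizes that leave out the top 5 miRNAs, no filter, DESeq2, limma-voom and the entries named for other species. With each week fitted alone it was 1 at week 4 (miR-19b-3p) and 1 at week 7 (miR-25-3p) and 0 at weeks 2 and 5. Leaving out 1 library at a time gave 0 to 1 members at weeks 2, 5 and 7, for the mean and for the interaction, and every gain came without a week 5 sham pool. At week 4 it gave 0. For week among sham groups the number was 1 with the entries named for other species and 1 to 3 with 1 library left out. For week among 5/6Nx groups it was 4 with library sizes that leave out the top 5 miRNAs and 0 to 4 with 1 library left out. Over all miRNAs, DESeq2 called 39 at week 2, 6 at week 5, 23 at week 7 and 29 for the mean, against 2, 0, 13 and 17 in edgeR, and with weeks fitted alone edgeR called 5 at week 2, 16 at week 4 and 34 at week 7. Without filter edgeR called 4 at week 2 and 2 at week 5. For the interaction DESeq2 called 27 of all miRNAs, against 5 in edgeR. With 1 library left out, edgeR called 0 to 56 of all miRNAs at week 2, 0 to 4 at week 4, 0 to 63 at week 5, 5 to 49 at week 7, 8 to 68 for the mean, 1 to 75 for the interaction, 71 to 169 for week among 5/6Nx groups (118 with all libraries) and 52 to 161 among sham groups (96 with all). The replicate block, with the pool letter as a term, gave 0 members in the surgery comparisons and the interaction, 2 for week among sham groups and 1 among 5/6Nx groups, and changed no call of a member. Deviations of pool A in 5/6Nx and sham correlated at r = 0.0989, -0.0917, 0.0177 and -0.181 at weeks 2, 4, 5 and 7, so no shift shared by letter was seen. How pools were lettered is not stated, and these values cannot exclude that pools of the same letter were handled together. The 16 changes followed through every alternative kept their sign, and 20 of the other 34 changed sign in at least 1. The order of levels, the median arm ratio and the median r over all pairs of members moved by less than their spread in the alternatives run for them. Single pairs moved further with group means subtracted, such as miR-19b-3p with miR-92a-3p (0.75, against 0.12 with week means subtracted) and miR-92a-3p with miR-93-5p (-0.95, against -0.36). Each of these members had its widest pool spread at week 5 sham, which can weigh heavily in such an r. Members at 0 to 27 counts limit what can be detected at this depth.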
